A study of Mus musculus with 8 samples.

Results

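Ube3a, Magel2 and Gnas, 3 genes known for imprinting, were described across 8 pools of early mouse kidney tissue, 4 from Wt1 mutants and 4 controls. Probes were chosen by the gene or transcript identifier in the array files, matched to the RefSeq gene table without the transcript version. Each gene had 1 probe, so the members are 3 of the 311 probes, for 305 genes, that could be matched to a symbol among 33012 probes on the array. The matching rule uses no measured value, but these genes were picked with earlier results of the data known. Each probe was detected in every pool and entered the comparison, so no member was lost to the filter on dim probes.

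The tissue was metanephric kidney dissected at E10.25 (8 to 13 tail somites) from mice of mixed C57Bl6/DBA background that carried the Wt1 mutant allele. Mutant pools are labelled WT1_KO. Control pools are titled as wild type but carry the genotype entry WT1_heterozygote, so their genotype is left as labelled and they are called controls. Each pool combined 16 kidneys of like genotype, and 1 one-colour Mouse Genome Survey array was run per pool on amplified cRNA. Nothing in the labels says whether pools of a group came from different litters. The spread behind every p-value is thus that of these pools and may be partly technical. No probe was matched to Wt1, and of 64 marker genes in 10 lists only the red cell gene Hba-a1 was matched, so neither the genotype nor the tissue label could be checked against its defining genes here.

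An imprinted gene is transcribed mainly or only from the copy inherited from 1 parent, because the parental copies carry different DNA methylation at a control element. Ube3a and Magel2 belong to the Prader-Willi and Angelman region of mouse chromosome 7. Ube3a encodes E6AP, a HECT-type ubiquitin ligase whose paternal copy is silenced in neurons, while most other tissues use both copies. Magel2 is expressed from the paternal copy, and its protein works with the ubiquitin ligase TRIM27 in the return of membrane proteins from endosomes. Gnas, on chromosome 2, is a complex locus whose alternative first exons give the stimulatory G protein alpha subunit and several related products of differing imprint. In the proximal tubule of the mature kidney the alpha subunit comes mainly from the maternal copy. The arrays do not distinguish parental copies, so the values below are total transcript signals and carry no information on imprinting itself.

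The sequences upstream of the annotated starts are shown for their CpG dinucleotides, the sites at which DNA can be methylated. No methylation was measured, so these data do not tell whether any of these windows carries a parental mark. Each line gives the 250 bases before a RefSeq start (build GRCm38.p6, plus strand, 5′ to 3′), with CG dinucleotides in capitals. The windows are chr7:59228500-59228749 for Ube3a, chr7:62376729-62376978 for Magel2 and chr2:174329756-174330005 for Gnas, whose other 3 listed windows are not printed. Which Gnas window precedes the start of the transcript listed for the probe is not given here.
Ube3a: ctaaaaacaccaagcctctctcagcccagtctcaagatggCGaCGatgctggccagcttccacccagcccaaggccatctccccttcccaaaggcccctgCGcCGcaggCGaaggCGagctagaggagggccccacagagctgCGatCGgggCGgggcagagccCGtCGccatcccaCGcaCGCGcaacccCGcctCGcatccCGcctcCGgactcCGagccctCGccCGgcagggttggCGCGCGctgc
Magel2: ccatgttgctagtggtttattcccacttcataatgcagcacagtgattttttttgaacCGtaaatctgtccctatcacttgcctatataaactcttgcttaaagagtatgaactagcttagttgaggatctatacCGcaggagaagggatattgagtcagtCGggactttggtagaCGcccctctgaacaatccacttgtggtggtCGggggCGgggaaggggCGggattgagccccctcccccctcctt
Gnas: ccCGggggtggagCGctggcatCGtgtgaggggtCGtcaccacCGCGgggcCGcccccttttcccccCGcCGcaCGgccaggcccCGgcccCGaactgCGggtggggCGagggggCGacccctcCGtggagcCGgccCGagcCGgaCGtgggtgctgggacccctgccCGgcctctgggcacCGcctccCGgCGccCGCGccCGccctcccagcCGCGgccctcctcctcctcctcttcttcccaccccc
The Ube3a window held 24 CpGs at a GC content of 70.0%, the Magel2 window 7 at 48.8% and the printed Gnas window 29 at 80.0%, against a median of 6 over 32851 windows of the same length. At least as many CpGs stood in 12.0% of all windows for Ube3a, in 46.3% for Magel2 and in 6.78% for the printed Gnas window. The Magel2 window is thus close to an ordinary one by this measure. The other 3 Gnas windows, 2 of which overlap, held 14, 21 and 22, with shares of 29.4%, 16.3% and 14.8%. The printed window is thus the one with the most CpGs among those listed for Gnas. The zinc finger element GCGGGGGCG, described for both Egr1 and WT1, and the WT1 element GCGTGGGAG were searched on both strands. Neither was found in the 6 windows of these 3 genes, and they occur in 2.57% and 0.405% of all windows. The GC box GGGCGG, present in 32.7% of all windows, was found once for Ube3a, at 2 places for Magel2 and at 2 in the printed Gnas window. The Gnas window with 14 CpGs held it at 1 place, and those with 21 and 22 at 0. The TATA box TATAAA, in 12.4% of all windows, was found for Magel2 and in the other 3 Gnas windows, and the motif AAGATGG, a core of YY1 sites found in 4.49% of all windows, was found for Ube3a. The motifs were chosen with the sequences in view, and a match or its absence is a description of these letters only.

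The arrays differed in ways the groups do not explain. The median signal ran from 681.6 to 2118.2 on a linear scale, and 52.6% to 59.5% of probes were detected per array, where detected means a signal-to-noise of at least 3 and a flag under 5000. The number of arrays limits the precision. On the first principal component (42.4% of the variance) control pools 1 and 2 lay at 42.16 and 67.46, far from the other 6 pools at -21.5 to -13.08. The median over tested probes of the log2 SD was 0.287 in controls and 0.136 in mutants. Array names form 2 batches by date, 1 with 3 pools of each group and 1 with mutant pool 1 and control pool 2. Each member is therefore also given with either pair of controls (1 and 2, or 3 and 4) left out, and within the larger batch.

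None of the 3 genes passed the threshold between mutants and controls. The test was limma's linear model over 17594 tested probes, two-sided, with Benjamini-Hochberg adjustment at 0.05, and 0.46% of all tested probes passed it. At that background 0 of 3 says little about these genes. Magel2 had the higher mean in mutants, Ube3a the lower, and Gnas means lay close together. The groups overlapped for each gene, while they did not overlap for 10.6% of all tested probes. A lower signal in a bulk pool may come from fewer cells of a type or from less RNA per cell, which cannot be told apart.

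**Figure D1:**
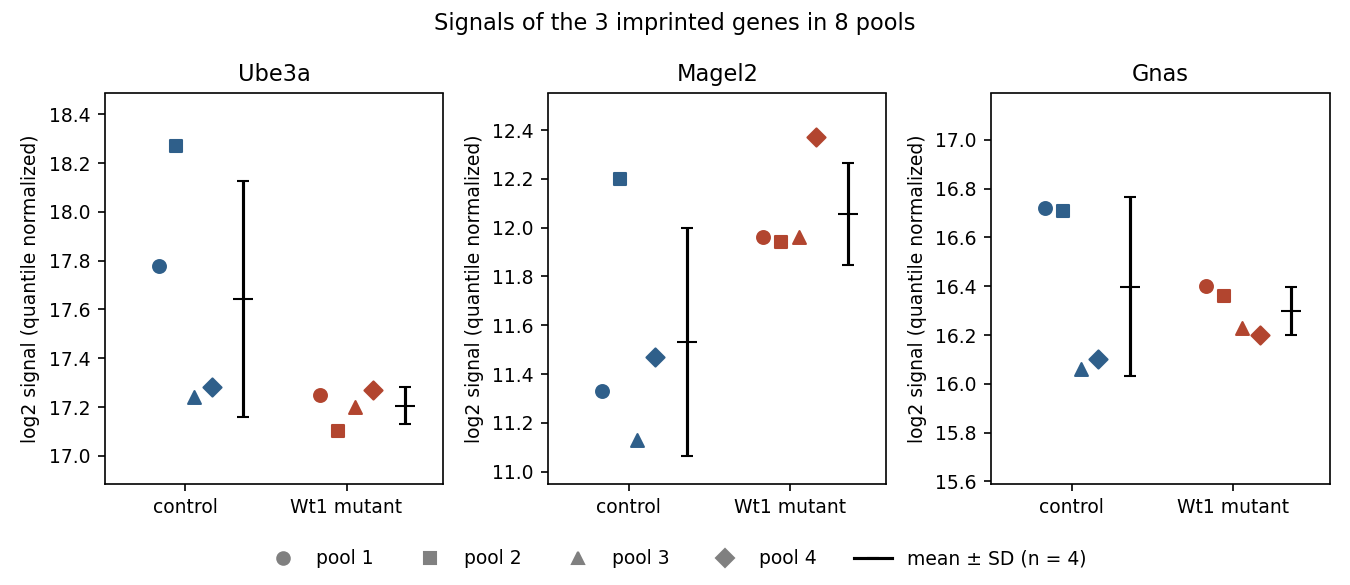
Log2 signal (vertical axis, quantile normalized, a span of equal height but different position per gene) of Ube3a, Magel2 and Gnas in control and Wt1 mutant pools. Each symbol is 1 pool, and the bar beside each group is its mean ± SD (n = 4). Control pools 1 and 2 lie above all other pools for Ube3a and Gnas, and control pool 2 lies among the mutant pools for Magel2.

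Magel2 was measured at 11.96, 11.94, 11.96 and 12.37 in mutant pools 1 to 4 and at 11.33, 12.20, 11.13 and 11.47 in control pools 1 to 4 (log2 signal, quantile normalized). Control pools 1, 3 and 4 thus lay below every mutant pool, and control pool 2 lay above 3 of the 4 mutant pools. Its linear signals were modest, from 2691.72 to 5823.51, with a signal-to-noise of 9.66 to 16.26 in mutants and 7.69 to 11.96 in controls. The mean was 12.06 ± 0.21 in mutants and 11.53 ± 0.47 in controls (SD, n = 4). The difference, mutant minus control, was 0.52 (SE 0.23, 95% interval -0.002 to 1.05), a 1.44-fold higher mean signal with limma's adjusted p = 0.367. The exact two-sided permutation test over the 8 pools gave p = 0.114, where 0.0286 is the smallest value this design allows.

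The Magel2 difference was positive under all 23 alternatives tried, between 0.29 and 0.78, and passed under 0 of them (limma's adjusted p from 0.0749 with array weights to 0.626 without control pool 1). It was 0.747 without control pool 2 (limma's adjusted p = 0.102), 0.757 without control pools 1 and 2 (adjusted p = 0.116) and 0.29 without control pools 3 and 4 (adjusted p = 0.443). Within the larger batch it was 0.779 (limma's adjusted p = 0.213). Every mutant pool lay above every control pool there, as for 6.71% of all tested probes, and 18.9% did not overlap in either direction. With the batch as a block it was 0.524 (limma's adjusted p = 0.346). Each batch holds as many mutant as control pools, so this block cannot change the difference. In the smaller batch the single mutant pool lay below the single control pool, with a difference of -0.24, so the direction was opposite in that pair. Mutant pool 4 stood above the other 3 mutant pools, and without it the difference was 0.42 (limma's adjusted p = 0.536).

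Ube3a gave strong signals, from 109542.67 to 402332.34 on the linear scale, with a signal-to-noise above 103 in every pool. It was measured at 17.25, 17.10, 17.20 and 17.27 in mutant pools 1 to 4 and at 17.78, 18.27, 17.24 and 17.28 in control pools 1 to 4 (log2 signal). The 4 mutant pools and control pools 3 and 4 lay within a narrow band, and control pools 1 and 2 lay above all of them. The means were 17.20 ± 0.08 in mutants and 17.65 ± 0.49 in controls (SD, n = 4). The difference was -0.44 (SE 0.22, 95% interval -0.951 to 0.066), a 1.36-fold lower mean in mutants with limma's adjusted p = 0.392 and an exact permutation p = 0.0857.

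The size of the Ube3a difference followed the choice of control pools. It was -0.059 without control pools 1 and 2 (95% interval -0.256 to 0.138; limma's adjusted p = 0.738), -0.233 without control pool 2 alone (adjusted p = 0.53) and -0.825 without control pools 3 and 4 (limma's adjusted p = 0.0126). In that last comparison 26% of all tested probes passed, so the call is not particular to Ube3a. Control pools 1 and 2 both lay above the other 6 pools for 4544 of the 17594 tested probes, or 25.8%, and both below for 15.9%, so the shape of the Ube3a values is common on these arrays. Within the larger batch the difference was -0.249 (limma's adjusted p = 0.664), and between the single pools of the smaller batch -1.02. With the batch as a block the difference over all pools was -0.442 by construction (limma's adjusted p = 0.354).

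Gnas was measured at 16.40, 16.36, 16.23 and 16.20 in mutant pools 1 to 4 and at 16.72, 16.71, 16.06 and 16.10 in control pools 1 to 4 (log2 signal). The mutant pools lay between the control pools, with control pools 1 and 2 above all of them and control pools 3 and 4 below all of them. The means were 16.30 ± 0.10 in mutants and 16.40 ± 0.37 in controls (SD, n = 4), a difference of -0.10 (SE 0.18, 95% interval -0.513 to 0.312; limma's adjusted p = 0.79, exact permutation p = 0.543). The interval spans 0.701-fold to 1.24-fold of the control mean. The file lists this probe under NM_019690.1, which is 1 of 12 curated RefSeq transcripts of the locus, and does not say which of the others the probe also detects.

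The sign of the Gnas difference depended on which control pools entered. It was 0.216 without control pools 1 and 2 (limma's adjusted p = 0.281) and -0.417 without control pools 3 and 4 (adjusted p = 0.0309), the comparison in which 26% of all probes passed. Leaving out control pool 1 or control pool 2 alone gave 0.008 and 0.003 (limma's adjusted p = 0.987 and 0.996). Within the larger batch the difference was -0.032 (limma's adjusted p = 0.957), and between the single pools of the smaller batch -0.30. With the batch as a block the difference over all pools was -0.100 by construction (limma's adjusted p = 0.771).

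**Figure D2:**
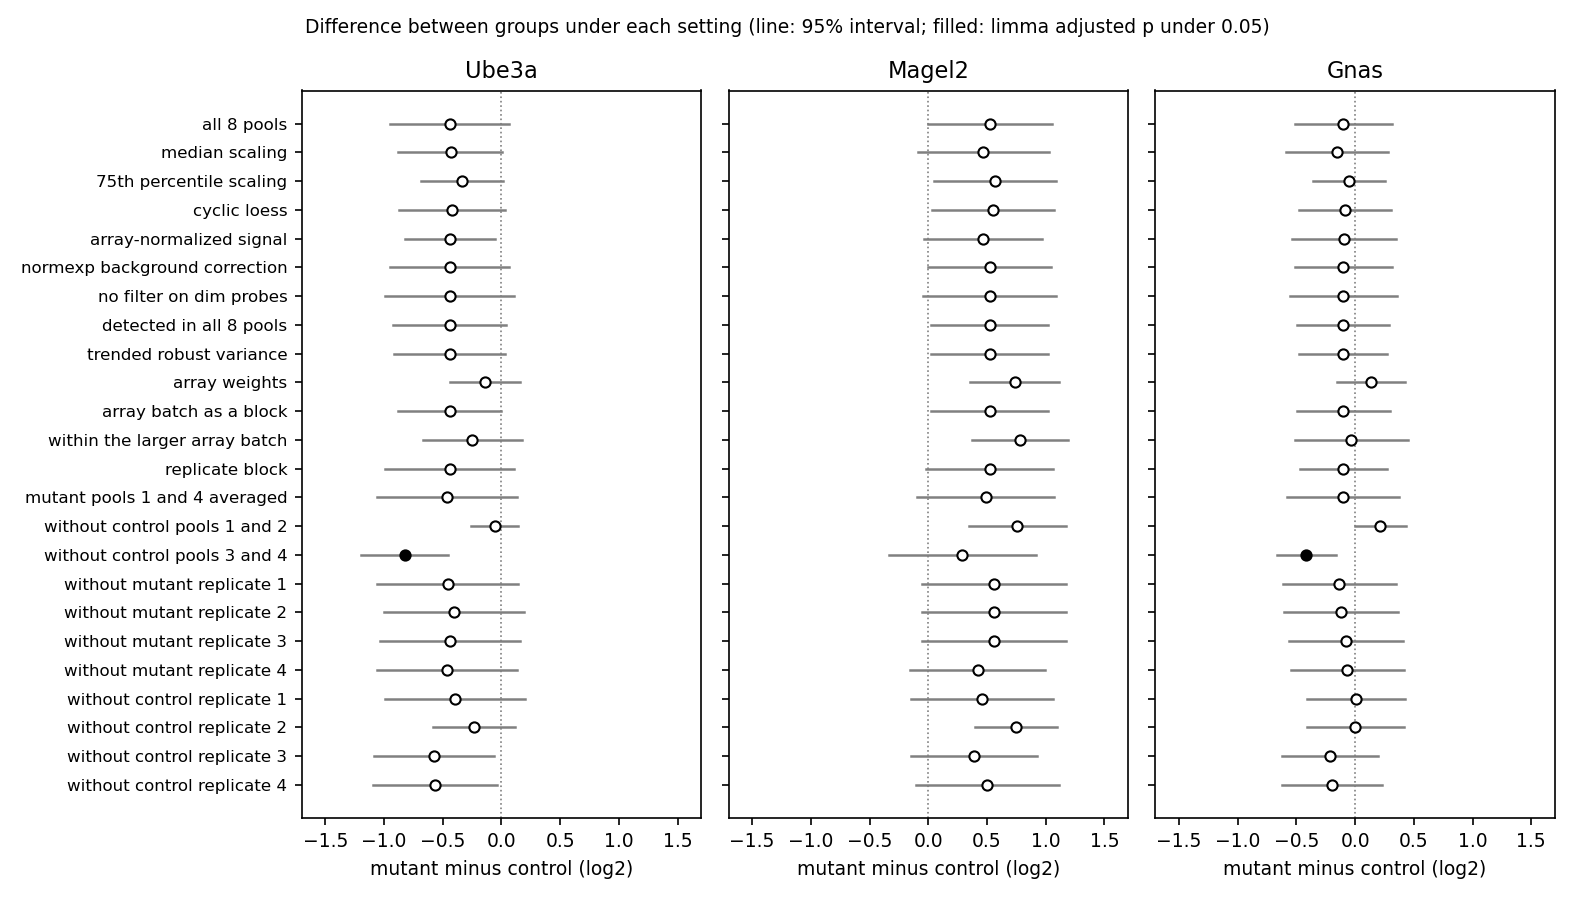
Difference between mutant and control means on the log2 scale (horizontal axis) for the 3 genes with all 8 pools and under each of 23 alternatives (vertical axis). Points are differences, lines are 95% intervals and filled points passed limma's adjusted p of 0.05, which happened for Ube3a and Gnas without control pools 3 and 4. Magel2 points stay at or above 0.29, and Gnas points lie on both sides of 0.

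The genes were then compared with each other inside each pool, a measure chosen after the values had been seen. The log2 signals of 2 probes on the same array, already quantile normalized, were subtracted. The shift between groups in such a difference equals the shift of 1 gene minus that of the other. The size of such a difference has no meaning of its own, since probes respond unequally, and only its shift between groups is read. Magel2 minus Ube3a was -5.29, -5.15, -5.24 and -4.90 in mutant pools 1 to 4 and -6.45, -6.07, -6.11 and -5.81 in control pools 1 to 4. Every mutant pool thus lay above every control pool, control pool 2 included. The shift was 0.97, from -6.11 ± 0.26 to -5.15 ± 0.17 (SD, n = 4), which is 1.95-fold. Since the pair was picked for its opposite differences, this is a description with no test.

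The Magel2 to Ube3a shift was 0.817 without control pools 1 and 2, 1.115 on leaving out control pools 3 and 4, 1.029 within the larger batch and 0.78 between the single pools of the smaller batch. It ran from 0.853 to 1.066 when 1 pool was left out, and was 0.903 with the array-normalized signal. Such separation was common on these arrays and is not particular to the pair. Magel2 minus another probe did not overlap between groups for 24.1% of the other 17593 tested probes, and Ube3a minus another probe for 16.8%.

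Magel2 minus Gnas, which uses the same Magel2 values, did not overlap between groups either, as Magel2 minus another probe did not for 24.1%. The shift was 0.62, from -4.86 ± 0.39 in controls to -4.24 ± 0.29 in mutants (SD, n = 4). The nearest pools, control pool 2 at -4.50 and mutant pool 1 at -4.44, are the 2 pools of the smaller batch and differed by only 0.06. Ube3a minus Gnas was 0.91 ± 0.15 in mutants and 1.25 ± 0.22 in controls, with groups that overlapped by a single pool on each side (mutant pool 4 at 1.07 and control pool 1 at 1.06). These are all 3 pairs of the 3 genes.

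**Figure D3:**
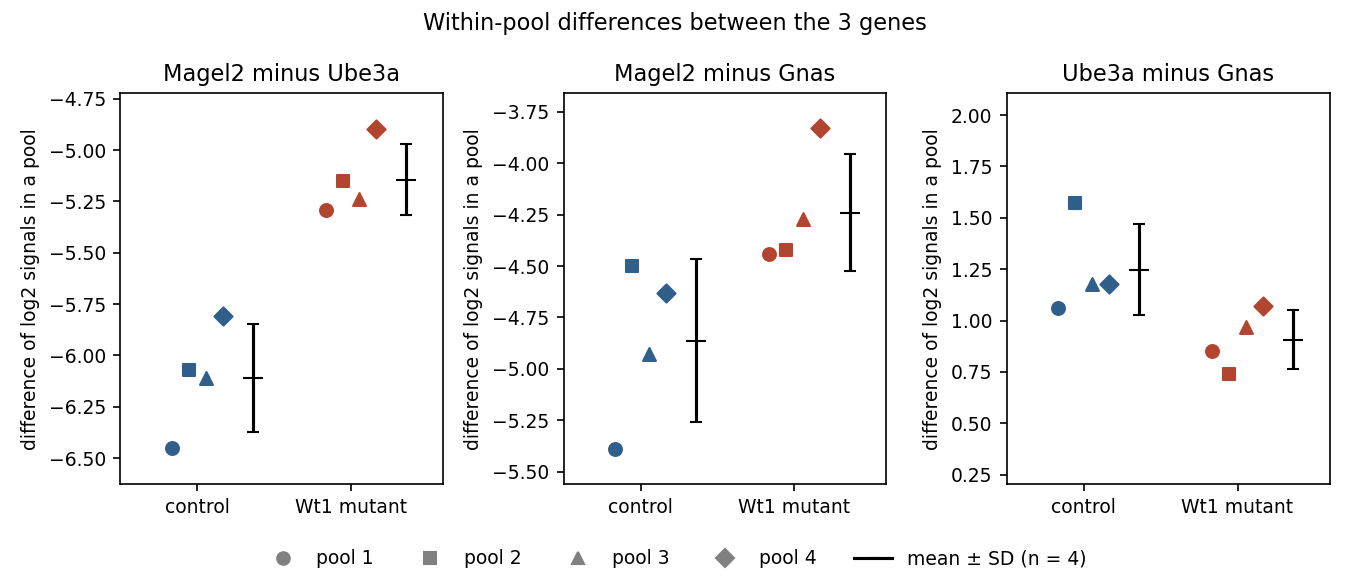
Difference of the log2 signals of 2 genes within each pool (vertical axis) for the 3 pairs, in control and Wt1 mutant pools. Each symbol is 1 pool, and the bar is the group mean ± SD (n = 4). Magel2 minus Ube3a lies between -5.29 and -4.90 in mutants and between -6.45 and -5.81 in controls.

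Of 87 imprinted genes listed for comparison, 6 were matched and all 6 were tested: the 3 members, Ndn, Mkrn3 and Peg12. None passed, against 0.46% of all tested probes, and their median difference was -0.05, against -0.06 over all tested probes. Apart from Gnas, the matched imprinted genes lie in the Prader-Willi and Angelman region, where the RefSeq table orders them as Ube3a, Ndn, Magel2, Mkrn3 and Peg12. Ndn encodes necdin, a MAGE protein related to that of Magel2, Mkrn3 a ring finger protein and Peg12 a protein of the GSK-3 binding FRAT family, and all 3 are expressed from the paternal copy, as is Magel2.

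The paternally expressed neighbours of Magel2 had group means that lay close together. Ndn was measured at 15.15, 15.41, 14.97 and 15.16 in mutant pools 1 to 4 and at 15.17, 15.27, 14.97 and 15.26 in control pools 1 to 4 (log2 signal). Its group means were both 15.17, and the difference of 0.003 had a 95% interval of -0.291 to 0.298 (limma's adjusted p = 0.992). Mkrn3 lay between 12.59 and 13.10 in mutants and 12.88 and 13.20 in controls, a difference of -0.12 (95% interval -0.441 to 0.193; limma's adjusted p = 0.654). Peg12 lay between 13.51 and 13.85 in mutants and 13.47 and 13.81 in controls, a difference of 0.14 (95% interval -0.156 to 0.429; limma's adjusted p = 0.594). The 95% interval of Magel2, -0.002 to 1.05, overlaps those of Ndn, Mkrn3 and Peg12. Whether Magel2 differs from these neighbours was not tested. The mean of control pools 1 and 2 minus that of control pools 3 and 4 was 0.77 for Ube3a and 0.47 for Magel2, but 0.11 for Ndn, -0.11 for Mkrn3 and -0.17 for Peg12. For Magel2 only control pool 2 stood high, at 12.20, while control pool 1 at 11.33 lay between control pools 3 and 4.

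**Figure D4:**
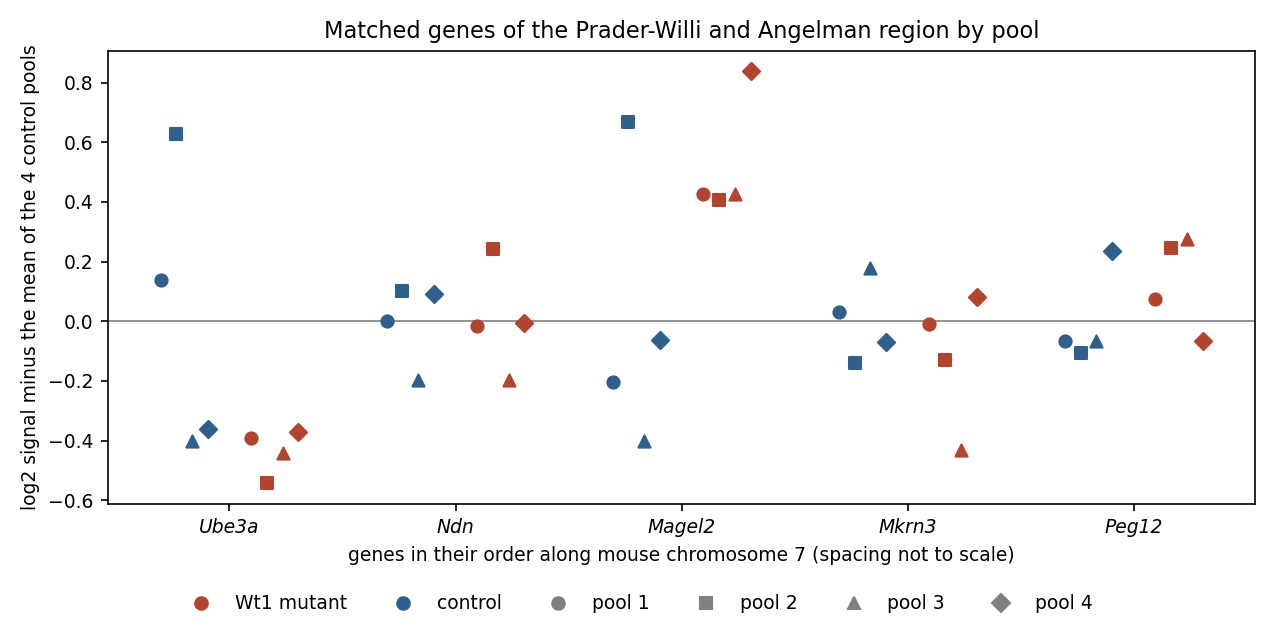
Log2 signal minus the mean of the 4 control pools (vertical axis) for the 5 matched genes of the Prader-Willi and Angelman region, in their order on chromosome 7 with spacing not to scale. Colours mark the group and symbols the pool number. The Ndn, Mkrn3 and Peg12 points of both groups intermix, while 3 of 4 Magel2 control points lie under every mutant point.

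Few partners of the 3 gene products could be located. Of 63 genes of ubiquitin ligation and of the MAGE-L2 complexes, 2 were matched: Ndn, given above, and Wwp1, a HECT-type ligase of the same class as Ube3a, which was detected in 0 of 4 mutant and 0 of 4 control pools and was not tested. Of 45 proteasome genes only Psme3, a subunit of the PA28 gamma activator, was matched. It was measured at 16.59, 16.54, 16.62 and 16.72 in mutant pools 1 to 4 and at 17.43, 17.21, 17.00 and 16.86 in control pools 1 to 4 (log2 signal). The groups did not overlap, as for 7.62% of all tested probes in the same direction, and the difference of -0.50 did not pass (SE 0.14, limma's adjusted p = 0.219). It was -0.309 without control pools 1 and 2. With control pools 3 and 4 left out it was -0.701 and passed (limma's adjusted p = 0.00751), as did 26% of all tested probes.

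For Gnas, 3 of 121 genes of heterotrimeric G protein and cAMP signalling were matched. Rasd1, a Ras-related GTPase that acts on G protein signalling, was measured at 12.16, 11.88, 11.93 and 11.98 in mutant pools 1 to 4 and at 12.68, 12.39, 12.78 and 12.59 in control pools 1 to 4 (log2 signal). The groups did not overlap, as for 7.62% of all tested probes in that direction, and the difference of -0.62 did not pass with all pools (SE 0.12, limma's adjusted p = 0.0899). It was -0.698 without control pools 1 and 2 (limma's adjusted p = 0.0658), and it passed with array weights at -0.676 (adjusted p = 0.025), where 1.62% of all tested probes passed. Ramp3, which partners receptors coupled to the Gnas product, lay between 12.07 and 12.27 in mutants and 11.26 and 12.14 in controls, and the means differed by 0.54 (SE 0.19; adjusted p = 0.305 by limma). The value was 0.244 without control pools 1 and 2. On leaving out control pools 3 and 4 it was 0.843 and passed (adjusted p = 0.00454 by limma), in the comparison where 26% of all tested probes did. Rasd1 also passed there, at -0.547 (adjusted p = 0.0282 by limma). Ramp1, a related receptor partner, was detected in 0 pools and was not tested. Thus none of Ndn, Psme3, Rasd1 and Ramp3, the tested genes of these lists, passed with all 8 pools. Since only 0.46% of all tested probes passed, this says little about these genes.

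Hba-a1, an alpha globin of red cells, was the 1 matched gene of 9 on the red cell list. It lay between 19.77 and 20.10 in mutants and was 18.08, 18.66, 19.40 and 19.64 in control pools 1 to 4 (log2 signal), a mean difference of 0.98 (SE 0.32; adjusted p = 0.279 by limma). Control pools 1 and 2, which were highest for Ube3a and Gnas, were thus lowest for Hba-a1. The part of blood content in the values of the 3 imprinted genes was not tested.

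Each member was set against the other 170 tested probes with a symbol by Pearson's r of log2 signal over the 8 pools, as a description in which all points share the arrays and their scaling. The values most like Ube3a were those of Zfp979 (r = 0.97), Trim59 (r = 0.97) and Trim41 (r = 0.95). Over the 6 pools without control pools 1 and 2 these were 0.80, 0.07 and 0.42, so the likeness to Trim59 and Trim41 rests on those pools. For Gnas the nearest were the COP9 signalosome subunit Cops3 (r = 0.94), Tspyl2 (r = 0.93) and Epdr1 (r = 0.90), with 0.90, 0.86 and 0.56 over the 6 pools.

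For Magel2 the nearest were Zfp352 (r = 0.92), Mab21l1 (r = 0.84) and the class I histocompatibility gene H2-Q7 (r = 0.82). Over the 6 pools r was 0.93, 0.85 and 0.74, so the likeness remained without control pools 1 and 2. Those 6 are among the 8 pools by which these genes were picked from 170 probes. Some high values of r arise from such picking alone. Mab21l1, a developmental gene of the eye and other organs, had a higher mean in mutants by 0.84 (limma's adjusted p = 0.272). Between the members, Ube3a and Gnas had r = 0.79 over the 8 pools and -0.51 over the 6. Magel2 had r = 0.12 with Ube3a and 0.19 with Gnas over the 8 pools, and -0.16 and 0.61 over the 6.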

How the data were processed

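Per the labels' protocols, RNA of each pool was amplified linearly, labelled with digoxigenin and hybridised to 1 array. Per the file headers, each deposited file holds 4 values for a probe: signal, signal-to-noise score, flag and array-normalized signal. The deposited signals are intensity values on a linear scale, none of them negative. The deposited flag is a whole-number score. The deposited series table equals the array-normalized signal in 264096 of 264096 cells. For background correction, reader software and flag meanings, the method is not given in the sources used here.

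Log2 intensities of 33012 probes were quantile normalized (limma 3.58.1, R 4.3.3). Testing required a signal-to-noise of 3 or more with a flag under 5000 in 3 or more of a group's 4 pools. The groups were compared with limma's moderated linear model, which had been tested on simulated data, and single genes also by exact permutation of pools. The simulated pools were independent and of equal spread in both groups, while the spread here was larger in controls. The simulation thus does not show how the test performs on these arrays. Symbols came from the RefSeq table of GRCm38.p6, by transcript or by a synonym naming 1 gene. All alternatives kept the same tested probes, except the 2 that changed the filter. The members, gene lists and alternatives were chosen with earlier results of these data known. Named genes were the members, matched list genes and, for each member, the 3 symbol-matched genes of highest r.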

Additional observations from a re-analysis of the deposited data

Results flagged for a closer look

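In 38 groups of 4 pools, from the 19 tested genes named here, 4 held a pool far from the other 3 by Dixon's ratio, where chance flags about 5% of groups. Magel2 in mutant pool 4 was 12.37, above the other mutant pools at 11.94 to 11.96 (log2 signal). Its neighbour Peg12 in control pool 4 was 13.81, above the other controls at 13.47 to 13.51. Ramp3 in mutant pool 4 was 12.07, below the other mutant pools at 12.24 to 12.27. H2-Q7 in mutant pool 3 was 12.76, below the other mutant pools at 12.98 to 13.03.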

How the results depend on the processing

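All 23 alternatives kept Ube3a lower on average in mutants (-0.83 to -0.06) and Magel2 higher (0.29 to 0.78). Those that changed only the filter, the variance model or the block could not move these differences. The others re-use the same pools, so the alternatives are not independent checks of the sign. Gnas changed sign with array weights (0.139) and on leaving out control pools 1 and 2 together (0.216), control pool 1 (0.008) or control pool 2 (0.003). With control pools 3 and 4 left out, Ube3a (-0.825) and Gnas (-0.417) passed the threshold, as did 4566 probes. Leaving out 1 pool gave -0.577 to -0.233 for Ube3a, 0.388 to 0.747 for Magel2 and -0.213 to 0.008 for Gnas. The count of 81 probes was 285 with array weights, 30 without a filter, 30 within the larger batch, 30 with the replicate block, 36 with mutant pools 1 and 4 averaged, whose array names share a number, and 38 to 65 with 1 pool left out. By construction the counts within the larger batch, with averaging and with a pool left out rest on fewer pools, and the other causes were not tested. Array weights were 0.305 and 0.161 for control pools 1 and 2, against 1.33 to 2.2 for the others. Outside the marker lists, the tested list genes were Ube3a, Magel2, Gnas, Ndn, Mkrn3, Peg12, Psme3, Rasd1 and Ramp3. With all pools 0 of them passed, against 0.46% of all tested probes. With array weights 1 passed (Rasd1), against 1.62% of all tested probes. Without control pools 3 and 4, 5 passed (Ube3a, Gnas, Psme3, Ramp3 and Rasd1), against 26% of all tested probes. No label ties same-numbered pools to each other. Their deviations correlated at -0.087, 0.178, 0.004 and 0.078, against -0.166 to 0.111 between pools of unlike number. The value for the pools numbered 2, 0.178, thus lay above those of all unlike pairs. With the replicate block the differences were -0.442, 0.524 and -0.100, with limma's adjusted p of 0.415, 0.405 and 0.753. Each such block holds 1 pool of each group, so it cannot change the differences.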
